A study of Mus musculus with 2 samples.

Results

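The 263 cells described here are the mouse islet beta cells in which mitochondrially encoded transcripts took the largest share of the captured RNA. They were taken from 2630 beta cells of 1 wild-type library, which held 4547 barcodes called as cells, and they were set against the 263 beta cells with the lowest mitochondrial share. A barcode entered the beta range with a minimum of UMIs (unique molecular identifiers, which count captured transcripts, with 5665 in the smallest cell), at least 500 genes and an insulin share (Ins1 and Ins2 together) of 35 to under 60% of UMIs. Gcg and Ppy each had to lie under 1.5% and Sst under 0.3%. The 10% of these cells with the highest share of UMIs in genes whose symbol starts with mt- are called the top decile, and the 10% with the lowest share the bottom decile. The cells were thus chosen by their mitochondrial share, which is given as a description. The nuclear genes other than insulin, counted per 1000000 of their own summed UMIs (written CPM below), did not enter that share's numerator, although they are part of its denominator.

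The study set islets of mice with a beta cell specific miR-203 transgene (TG, 1 library) against islets of wild-type mice (WT, 1 library), all male, 8 weeks old and fasted for 12 hours. Per the labels, the islets were frozen in liquid nitrogen and libraries were made with the 10x Genomics 3′ v2 kit. The labels' preparation text also describes sorted goblet cells of the gut, which does not match the islet tissue named elsewhere. The number of mice or islets pooled is not given, the TG library was not analysed here, and no TG cell enters any value. With 1 library there is no replicate, cells of 1 library are not replicates, and no p-value is given. Every interval is an exact 95% interval that covers counting error only.

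The mitochondrial genome is a small circle that encodes 13 proteins, all of them core subunits of respiratory chain complexes or of the ATP synthase, while the remaining subunits, and the proteins that copy, transcribe and translate that genome, are encoded in the nucleus. Its transcripts arise as long precursors that are cut at transfer RNAs and polyadenylated, so that a poly-A method captures them. In beta cells, ATP made by this chain closes the KATP channel, and calcium entry and insulin release follow. In droplet data the mitochondrial share is also widely used to filter out damaged cells, and the state of these cells was not tested.

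The top decile carried beta cell transcripts. Iapp, which encodes amylin, stood at 91731 CPM in the top decile and 123541 CPM in the bottom decile, against 7398 CPM in alpha cells of the same library. Pdx1, Nkx6-1, Slc2a2 (the glucose transporter GLUT2) and Ucn3 (urocortin 3) stood at 113, 283, 213 and 566 CPM in the top decile, and at 108, 260, 176 and 580 CPM in the bottom decile. In alpha cells they stood at 9.71, 24.2, 6.04 and 26.3 CPM. Against alpha cells, the label of beta cells was thus matched by all 5 of these markers, of which none was used by the rule. In free RNA (from droplets of few UMIs, defined below) Iapp stood at 99975 CPM, above the top decile and under the bottom decile. The Iapp level of the top decile thus did not exceed that of free RNA. Pdx1, Nkx6-1, Slc2a2 and Ucn3 stood at 87.0, 158, 133 and 313 CPM in free RNA, under both deciles.

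Cells of the top decile had more mitochondrial UMIs and fewer of all others. A rank by mitochondrial share favours both, because mitochondrial UMIs are its numerator and all UMIs its denominator. In the top decile the share ran from 5.24 to 16.5% of UMIs, with a median of 5.98% and a 10th to 90th percentile of 5.39 to 7.60%. The bottom decile ran from 0.308 to 2.17%, with a median of 1.90%, and the 2104 cells between had a median of 3.29%. The limit cut a continuous range, with the lowest cell inside at 5.2401% and the highest outside at 5.2398%. Only 6 of the 263 cells lay above 10% and 1 above 15%. A median cell of the top decile held 1064 mitochondrial, 8574 other nuclear and 7530 insulin UMIs, and a median cell of the bottom decile held 563, 13075 and 16308. Total UMIs had a median of 17362 in the top decile and 29696 in the bottom decile, and detected genes 3118 and 3663. After every cell had been thinned to 4000 nuclear UMIs, which left out 9 and 12 cells, the median was 1860 genes in the top decile and 1731 in the bottom decile. Before thinning it was 3104 and 3649 nuclear non-insulin genes over all 263 cells of each decile.

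**Figure D1:**
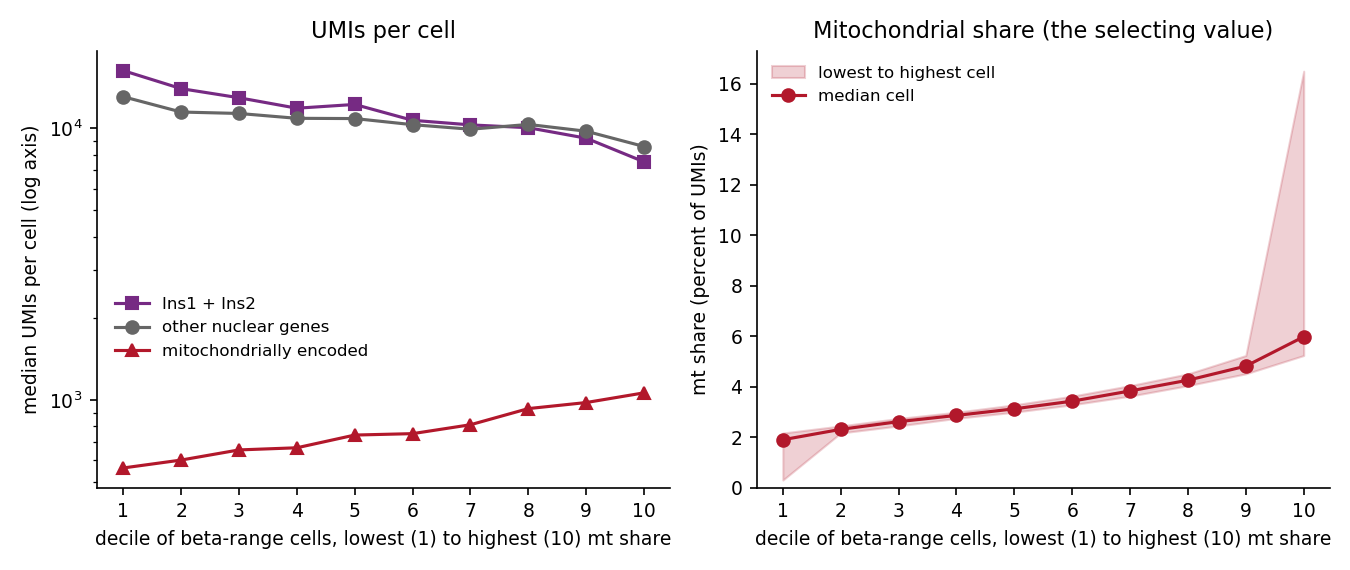
Left, median UMIs per cell (log axis) of Ins1 plus Ins2, other nuclear genes and mitochondrially encoded genes in the 10 deciles of beta-range cells, ordered from the lowest to the highest mitochondrial share, 263 cells each. Right, the mitochondrial share in percent of UMIs, which ordered the deciles, as the median (points) and the lowest to highest cell (band). Mitochondrial UMIs were higher along the deciles, with 1064 in decile 10 and 563 in decile 1, while insulin UMIs were lower, with 7530 in decile 10 and 16308 in decile 1.

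The insulin share moved the other way, within the window the rule allows. Insulin UMIs are part of the denominator of the mitochondrial share, so a lower insulin share raises the mitochondrial share, inside and outside that window. The median insulin share was 43.7% of UMIs in the top decile and 55.4% in the bottom decile, with Ins1 at 10.6% and 15.4% and Ins2 at 33.4% and 39.3% of the summed UMIs. Cells under the insulin window (335 cells with at least 10% insulin) had a median mitochondrial share of 5.75%, and the 391 cells above it had 2.08%. Alpha cells (444), delta cells (114) and pancreatic polypeptide cells (96) had medians of 2.21%, 2.16% and 1.96%. Free RNA, taken from droplets of 200 or fewer UMIs, had a mitochondrial share of 7.46%, and 30 cells of the top decile lay above that. Depth and insulin share therefore moved with the mitochondrial share, and their part in the results was not tested. Values from deciles drawn within 10 bins of total UMIs (260 cells each) are given as depth-balanced values where they bear on a result.

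All 13 mitochondrially encoded genes were detected and each took a larger part of the UMIs in the top decile, which the rule fixes for their sum. mt-Co1, a catalytic subunit of complex IV (chromosome M, 5328 to 6872, plus strand, GRCm38), stood at 1.22% of UMIs in the top decile and 0.435% in the bottom decile, a ratio of 2.80. mt-Nd4, a subunit of complex I (10167 to 11544), stood at 0.399% and 0.0987%, a ratio of 4.04. mt-Cytb, the mitochondrial subunit of complex III (14145 to 15288), stood at 0.596% and 0.185%, a ratio of 3.22. Among genes of over 500 UMIs in the top decile the ratio ran from 2.80 for mt-Co1 to 4.82 for mt-Nd4l, a complex I subunit with 619 and 228 UMIs. mt-Nd6, the only one of the 13 read from the opposite strand, gave 28 and 20 UMIs.

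The make-up of the mitochondrial RNA differed between the deciles. mt-Co1 made up 19.5% of mitochondrial UMIs in the top decile (19.4 to 19.7) and 23.6% in the bottom decile (23.3 to 23.8). Per cell, its share had a median of 19.5% (10th to 90th percentile 16.8 to 23.2) and 23.4% (19.4 to 26.6), so that single cells of both deciles overlapped. Across the deciles in rising order of mitochondrial share it stood at 23.6, 23.5, 23.4, 23.2, 22.6, 22.4, 21.4, 21.0, 20.4 and 19.5%. With depth-balanced deciles it was 20.1% and 23.7%, and with deciles drawn within bins of insulin share 19.3% and 23.9%. The complex I subunits mt-Nd2 and mt-Nd4 held larger parts in the top decile, 4.37% and 6.37%, against 3.26% and 5.34% in the bottom decile. mt-Co3, another complex IV subunit, held 20.1% and 20.2%. Free RNA held 13.6% mt-Co1, 3.16% mt-Nd2 and 6.67% mt-Nd4. Compared with the bottom decile, the top decile lay towards free RNA for mt-Co1, mt-Nd4, mt-Nd1 and mt-Atp6. It lay away from free RNA for mt-Nd2, mt-Co2, mt-Cytb, mt-Nd3 and mt-Nd4l. For mt-Co3, mt-Atp8, mt-Nd5 and mt-Nd6 the intervals of the deciles overlapped. The make-up thus did not move towards free RNA in all genes. In alpha cells split in tertiles by mitochondrial share, mt-Co1 held 18.1% in the top tertile and 18.6% in the bottom tertile. Which copies the authors' counting assigned reads to is not given in the sources used here, and nuclear copies of mitochondrial sequence could share reads with these genes.

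**Figure D2:**
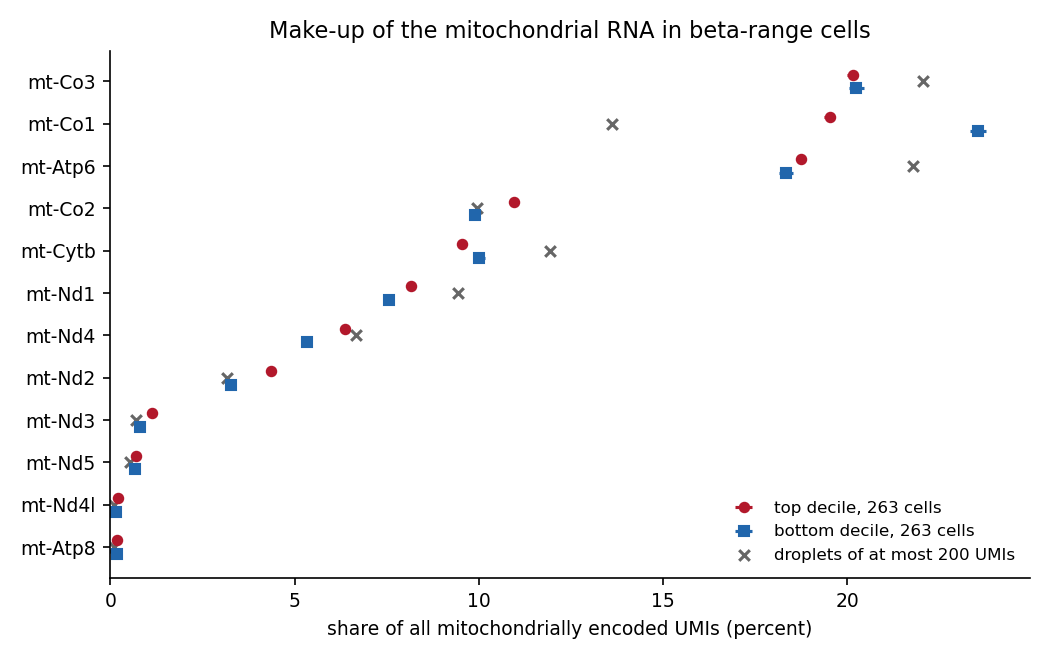
Share of all mitochondrially encoded UMIs (percent) held by each of 12 mitochondrial genes in the top decile (circles) and the bottom decile (squares) of beta-range cells, with exact 95% intervals, mostly narrower than the symbols, and in droplets of at most 200 UMIs (crosses). mt-Nd6, with 28 UMIs, is left out. mt-Co1 stood at 19.5% in the top decile and 23.6% in the bottom decile, and mt-Nd2 at 4.37% and 3.26%.

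Among nuclear genes, 6711 reached 20 CPM in either decile. Of these, 1531 (22.8%) were over 1.5-fold higher in the top decile and 498 (7.42%) over 1.5-fold lower. The median gene stood at log2 0.22, top over bottom decile, with a 10th to 90th percentile of -0.49 to 0.80. The split depends on the scaling: relative to the median gene 658 genes were higher and 985 lower, and with trimmed-mean (TMM) scaling 724 and 926. With depth-balanced deciles 779 (11.7% of 6639) were higher and 245 (3.69%) lower. In 298 and 124 genes the whole counting interval lay beyond 1.5-fold. List medians below are log2 ratios in CPM, so that a median under 0.22 lies under the median gene. With depth-balanced deciles the median gene stood at 0.15, and in the alpha cell tertiles at 0.28. Counts of list members are to be read against 22.8% higher and 7.42% lower, or 11.7% and 3.69% where depth is balanced. Alpha cell counts are to be read against 20.2% and 1.11%. Of the 80 named genes past 1.5-fold, 78 kept their direction with depth-balanced deciles and 53 stayed past 1.5-fold. Most were chosen as extremes of the first contrast, and both contrasts rank the same beta-range cells by the same share. A kept direction was thus favoured in advance and is no independent support. Irs2 and Clk1, a kinase of splicing factors, turned. In 12 the depth-balanced interval took in 0, namely Irs2, Clk1, Idh3g, Mtpap, Afg3l2, Opa1, Mfn1, Bbc3, Pfkm, Pfkp, Slc2a1 and Insr.

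Ppargc1a had the highest lower bound of any gene above 50 CPM. It encodes PGC-1α, a coactivator that drives genes of mitochondrial biogenesis and of the fasting response. It stood at 64.3 CPM in the top decile (54.4 to 75.6, 148 UMIs) and 18.2 CPM in the bottom decile (14.1 to 23.2, 65 UMIs), a log2 ratio of 1.82 (1.39 to 2.26) on chromosome 5, 51454250 to 51567726. The UMIs came from 71 and 27 cells, and the 5 cells with most of them gave 30.4% and 52.3% of the sum. Along the deciles it was not even, at 18.2, 16.6, 21.1, 34.9, 25, 35.8, 29.4, 31.5, 48.0 and 64.3 CPM. The depth-balanced ratio was 1.57 (1.09 to 2.08), and in alpha cells it was 0.89 (0.03 to 1.78) from 34 and 19 UMIs.

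Neat1, the RNA scaffold of nuclear paraspeckles, was another of the 12 genes with the highest bounds. It stood at 771 CPM in the top decile and 296 CPM in the bottom decile (log2 1.38, 1.27 to 1.49), and with depth-balanced deciles at log2 0.65. In alpha cells its ratio was 0.03, from 293 and 297 UMIs. Zdhhc2, an enzyme that attaches palmitate to proteins, stood at 420 and 189 CPM (log2 1.16), and Larp4b, an RNA-binding protein of the La-related family, at 203 and 84.9 CPM (log2 1.26). Gm17767, a predicted gene, stood at 78.2 and 23.3 CPM (log2 1.75) and gave 1 and 3 UMIs in alpha cells. The others were Fam83g (log2 1.62), which binds casein kinase 1, Git1 (1.46), a GTPase-activating protein for Arf, Ppp2r3a (1.40), a regulatory subunit of protein phosphatase 2A, and Dsp (1.35), desmoplakin. Fam134c (1.33), of a family of receptors for autophagy of the endoplasmic reticulum, Tacc2 (1.27), a coiled-coil protein of the centrosome, and Sipa1l3 (1.27), related to activators of Rap GTP hydrolysis, complete the 12. With depth-balanced deciles the 12 ratios ran from 0.59 for Fam83g to 1.57 for Ppargc1a.

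Immediate early genes were the group furthest down in the top decile. These genes are transcribed within minutes of calcium, cAMP, growth factor or stress signals. Of the 23 list members that passed the floor, 17 were over 1.5-fold lower and 0 higher, with a median log2 of -1.33, or -1.55 relative to the median gene. Fos, the AP-1 subunit (chromosome 12, 85473890 to 85477273), stood at 269 CPM in the top decile (248 to 291, 618 UMIs) and 2264 CPM in the bottom decile (2215 to 2314, 8076 UMIs), a log2 ratio of -3.08 (-3.20 to -2.96). Jun, its partner, stood at 560 and 2566 CPM (log2 -2.20), Junb at 352 and 1410 CPM (-2.0), and Egr1, a zinc finger factor, at 348 and 1358 CPM (-1.97). Dusp1, a phosphatase that switches off MAP kinases, stood at 75.6 and 560 CPM (-2.89), and Zfp36, which speeds decay of AU-rich messengers, at 34.8 and 168 CPM (-2.27). Ier2 (log2 -2.46) and the antiproliferative factor Btg2 (-1.85) were low in the same way. The highest of the 23 was Jund, at 3151 CPM in the top decile and 2506 CPM in the bottom decile (log2 0.33), and Ppp1r15a, the GADD34 subunit that reverses eIF2α phosphorylation, stood at 290 and 321 CPM (log2 -0.14).

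Several genes outside that list were among the 12 with the lowest bounds. C2cd4b, a gene active in beta cells whose human counterpart lies at a type 2 diabetes locus, stood at 314 CPM in the top decile and 1820 CPM in the bottom decile (log2 -2.54). Rasd1, a small GTPase induced by glucocorticoid, stood at 22.2 and 164 CPM (log2 -2.88), Cited2, a CBP/p300-binding regulator, at 76.1 and 281 CPM (-1.88), and 8430408G22Rik at 87.4 and 366 CPM (-2.07). Txnip, the glucose-induced inhibitor of thioredoxin, stood at 176 and 499 CPM (log2 -1.51, -1.67 to -1.35). With depth-balanced deciles C2cd4b stood at log2 -1.43, Rasd1 at -1.68, 8430408G22Rik at -1.28 and Txnip at -0.62. Cited2 stood at log2 -0.38 there, which is within 1.5-fold.

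The early genes differed by less where depth was balanced. The list then had 12 of 23 members over 1.5-fold lower and 0 higher, with a median of -0.71, and Fos stood at 533 CPM in the top and 1518 CPM in the bottom decile within bins (log2 -1.51). Per cell, the summed list had a median of 69.7 per 10000 nuclear UMIs in the top decile (lowest 2.72, highest 389) and 148 in the bottom decile (lowest 15.6, highest 531), so single cells overlapped. In the cells between these deciles the median was 78.3, so the bottom decile lay further from them than the top decile did. Of the top decile 22 cells (8.37%) lay above the upper quartile of all beta-range cells, against 141 cells (53.6%) of the bottom decile. Single cells weighed on single genes: the 5 cells with most Fos gave 27.2% of its UMIs in the top decile and 9.46% in the bottom decile. In alpha cells, 2 of 20 members were over 1.5-fold higher in the top tertile and 1 lower, with a median of 0.11, and Fos stood at log2 -0.53 from 240 and 357 UMIs.

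The promoters of 3 of these low genes and of Ppargc1a are shown because Fos, Dusp1 and Ppargc1a are known targets of the cAMP-responsive factor CREB, which binds the motif TGACGTCA or its short form TGACG, and Junb pairs with Fos. Each run is 100 of the 250 bases before the gene's start (RefSeq, GRCm38.p6), on the gene's own strand, and capitals mark TGACG or, for the other strand, CGTCA, which overlap in the full motif.
Fos, chr12:85473779-85473878, plus strand: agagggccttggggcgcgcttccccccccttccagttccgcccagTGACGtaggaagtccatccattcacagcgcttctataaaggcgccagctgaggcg
Junb, chr8:84978800-84978899, minus strand: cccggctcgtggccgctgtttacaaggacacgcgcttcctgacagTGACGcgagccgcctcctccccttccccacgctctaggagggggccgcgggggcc
Dusp1, chr17:26508561-26508660, minus strand: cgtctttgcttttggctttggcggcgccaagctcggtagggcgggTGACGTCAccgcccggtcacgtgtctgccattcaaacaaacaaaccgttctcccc
Ppargc1a, chr5:51567726-51567825, minus strand: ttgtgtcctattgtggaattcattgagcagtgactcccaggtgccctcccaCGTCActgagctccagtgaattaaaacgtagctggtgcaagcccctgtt

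The motif occurred in promoters of genes that stood on both sides. From 250 bases before to 50 after the start, TGACG or CGTCA was found in 13 of 21 early list genes with a promoter in the table (61.9%), in 41.5% of the 5261 measured genes with one, and in 20.8% of all 32851 promoters. Of the 12 lowest genes 8 had a promoter in the table and 5 held the motif, and of the 12 highest 9 had one and 5 held it. The full TGACGTCA was found in 3 of the 21 early genes (14.3%) and in 4.58% of measured genes. A match describes these letters only.

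Proteasome and ubiquitin genes were also lower in the top decile. Of 24 members 15 were over 1.5-fold lower and 0 higher, with a median log2 of -0.74, or -0.97 relative to the median gene, and all 24 lay under the median gene. Ubb, a polyubiquitin gene that stress induces, stood at 3063 CPM in the top decile and 7205 CPM in the bottom decile (log2 -1.23, -1.27 to -1.20), although it belongs to a gene family whose near-identical copies could share reads. Psma2, of the proteasome core, stood at 84.7 and 192 CPM (log2 -1.18). Psmd1 and Psmd2, of the regulatory cap, stood at 55.2 and 49.1 CPM (log2 0.17) and at 77.4 and 67.6 CPM (0.20). Per cell the summed list had a median of 65.2 per 10000 nuclear UMIs in the top decile and 123 in the bottom decile, and 14 cells (5.32%) against 190 cells (72.2%) lay above the upper quartile of the beta range. In the cells between these deciles the median was 73.8, nearer the top decile. Depth-balanced, 9 of 24 were lower and 0 higher, with a median of -0.50. In alpha cells 0 of 24 passed 1.5-fold either way, where 1.11% of all measured genes were lower. The median there was -0.17, against that contrast's median gene of 0.28.

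Cytosolic heat shock genes followed in smaller measure. Of 14 members 7 were over 1.5-fold lower and 0 higher, with a median log2 of -0.57, or -0.79 relative to the median gene. Hspa1a, an inducible HSP70, stood at 2006 CPM in the top decile and 4130 CPM in the bottom decile (log2 -1.04), with the caution that Hspa1b is nearly identical. Hspb1, the small chaperone HSP27, stood at 369 and 776 CPM (log2 -1.07). Bag3, a co-chaperone of HSP70, stood at 315 and 223 CPM (log2 0.49), and Hsph1 at 1417 and 1166 CPM (0.28). Per cell the summed list had a median of 135 per 10000 nuclear UMIs in the top decile and 210 in the bottom decile. In the cells between it was 150, nearer the top decile. With depth-balanced deciles 2 of 14 were lower and 0 higher, with a median of -0.30, and the median in alpha cells was 0.10.

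**Figure D3:**
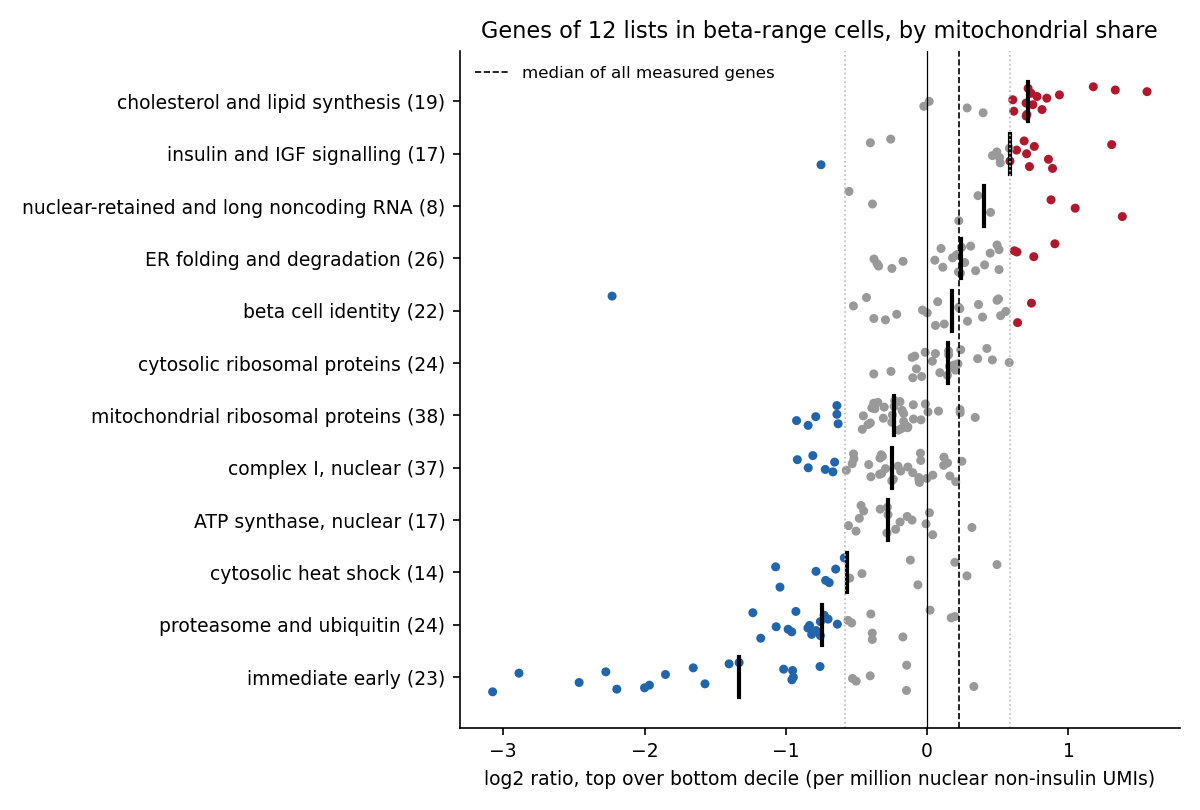
Log2 ratio of the highest over the bottom decile (CPM) for each gene that reached 20 CPM in either decile, in 12 gene lists, with the number of genes in parentheses. Red and blue points lie beyond 1.5-fold (dotted lines), grey points within it, black bars are list medians, and the dashed line is the median of all 6711 measured genes at 0.22. The immediate early list has a median of -1.33 and the cholesterol and lipid list one of 0.71.

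The nuclear genes of the respiratory chain did not stand high where the mitochondrial genes did. Of 37 nuclear complex I genes 0 were over 1.5-fold higher and 6 lower, with a median log2 of -0.25, or -0.47 relative to the median gene. For complexes II and III these were 0 and 3 of 14 (median -0.16), for complex IV 0 and 1 of 11 (-0.24), and for the ATP synthase 0 and 0 of 17 (-0.28). Ndufs3, a core subunit of complex I, stood at 88.2 CPM in the top decile and 167 CPM in the bottom decile (log2 -0.92), and Ndufb6, an accessory subunit, at 88.2 and 158 CPM (-0.84). Ndufs1 and Ndufa2 were the highest of the 37, at log2 0.25 (-0.24 to 0.73) and 0.20 (0.11 to 0.29). Cox5a, of complex IV, stood at 88.7 and 156 CPM (log2 -0.82), and Uqcrc2, of complex III, at 60.4 and 108 CPM (-0.84), while Sdha, of complex II, stood at 167 and 125 CPM (0.42). Of the others at the ends of these lists, Uqcrb and Uqcrq of complex III stood at log2 -0.69 and 0.20, and Cox5b, Cox8a and Cox6a1 of complex IV at -0.47, 0.05 and 0.19. In the ATP synthase, Atp5f1 and Atp5c1 stood at -0.56 and -0.50, and Atp5a1 and Atp5e at 0.04 and 0.32. With depth-balanced deciles the medians of the 4 lists lay between -0.14 and -0.07, against a median gene of 0.15 there. In these deciles 2, 1, 0 and 0 genes were lower and 0 higher.

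These genes have short transcripts, with a median of 1046 bases for complex I against 3381 over all measured genes, and short transcripts as a class stood low (given with the length quintiles). Set against the median gene of the same quintile of transcript length, the complex I median was -0.09, with 13 genes above and 24 below. On that scale complexes II and III stood at -0.08, complex IV at -0.03 and the ATP synthase at -0.23, with 7 of its 17 genes above and 10 below. In alpha cells the medians of the same 4 lists lay between 0.07 and 0.17, under that contrast's median gene of 0.28.

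Genes that read, copy and translate the mitochondrial genome went both ways. Of 27 such genes in the gene list 13 passed the floor, 3 were higher and 4 lower, with a median of 0.19 that included Ppargc1a. With depth-balanced deciles 2 were higher and 2 lower of 11, with a median of -0.13. Trmt10c, a subunit of the RNase P that cuts the mitochondrial precursor, stood at 12.2 CPM in the top decile (28 UMIs) and 38.4 CPM in the bottom decile (137 UMIs), a log2 ratio of -1.66 (-2.30 to -1.06). Ssbp1, which coats single-stranded mitochondrial DNA, stood at 43.9 and 76.8 CPM (log2 -0.81), and Mtpap, the mitochondrial poly-A polymerase, at 21.3 and 12.6 CPM (0.76, 0.14 to 1.37). Mitochondrial ribosomal proteins had 0 higher and 6 lower of 38 (median -0.23), from Mrpl27 (37.8 and 71.8 CPM, log2 -0.92) and Mrpl15 (-0.84) at the low end to Mrpl52 (0.23) and Mrpl34 (0.34) at the high end. With depth-balanced deciles 0 were higher and 1 lower of 39, with a median of -0.18.

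Lists of other mitochondrial functions had medians under the median gene, by 0.31 for import, 0.30 for carriers and 0.35 for the tricarboxylic acid cycle. Against genes of the same transcript length these medians were -0.04, -0.10 and -0.15. Import, chaperone and protease genes had 3 higher and 0 lower of 26 (median -0.09), with the matrix proteases Afg3l2 at log2 0.68 and Lonp1 at 0.61 and the chaperonin Hspe1 and the prohibitin Phb both at -0.55. Carriers, dynamics and mitophagy had 3 higher and 1 lower of 20 (median -0.07). Its highest were the fusion genes Mfn1, at 26.5 and 15.7 CPM (log2 0.76), and Opa1, at 24.8 and 14.9 CPM (0.74), and its lowest were Vdac3 (-0.61), a channel of the outer membrane, and Slc25a4 (-0.51), an ADP/ATP carrier. In the tricarboxylic acid cycle 2 were higher and 2 lower of 23 (median -0.12). Ogdh, of the 2-oxoglutarate dehydrogenase, stood at 153 CPM in the top decile and 81.6 CPM in the bottom decile (log2 0.90), and Idh3g, of isocitrate dehydrogenase, at 62.6 and 97.3 CPM (-0.64). Fumarase, Fh1, stood at -0.60 and the aminotransferase Got2 at 0.61. In alpha cells Ogdh stood at log2 1.02. Depth-balanced counts of higher and lower genes were 1 and 1 for import, 1 and 0 for carriers and 1 and 0 for the cycle.

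Cholesterol and fatty acid synthesis was the list with the highest median. Of 19 members 15 were over 1.5-fold higher in the top decile and 0 lower, with a median log2 of 0.71, or 0.49 relative to the median gene. Acaca, acetyl-CoA carboxylase, stood at 23.9 CPM in the top decile (55 UMIs) and 8.13 CPM in the bottom decile (29 UMIs), a log2 ratio of 1.56 (0.88 to 2.26). Fasn, fatty acid synthase, stood at 48.7 and 19.3 CPM (1.33, 0.89 to 1.79). Fdps, of the isoprenoid branch, stood at 106 and 105 CPM (0.01), and Insig2, which holds the SREBP precursor in the endoplasmic reticulum, at 57.4 and 58.3 CPM (-0.02). Depth-balanced, 9 of 19 were higher and 0 lower, with a median of 0.55, and against genes of the same transcript length the median was 0.29, with 17 of 19 above. In alpha cells 4 of 14 were higher and 0 lower, with a median of 0.46.

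Insulin and IGF signalling genes stood high as well, with 9 higher and 1 lower of 17 and a median log2 of 0.59, or 0.36 relative to the median gene. With depth-balanced deciles 4 were higher and 1 lower of 18, with a median of 0.44. Grb10, an adaptor that restrains the insulin receptor, stood at 25.6 CPM in the top decile and 10.4 CPM in the bottom decile (log2 1.31, 0.69 to 1.94), and Insr, the receptor, at 29.6 and 16.0 CPM (0.89). Grb14, a related adaptor, stood at -0.40. Irs2, the main receptor substrate of beta cells, stood at 109 and 184 CPM (log2 -0.75), and with depth-balanced deciles at log2 0.13. Members of this list have long transcripts, and against genes of the same length its median was 0.06, with 11 above and 6 below.

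Among 8 nuclear-retained and long noncoding RNAs 3 were higher and 0 lower, with a median of 0.40. Kcnq1ot1, an imprinted RNA read antisense to Kcnq1, stood at 309 CPM in the top decile and 150 CPM in the bottom decile (log2 1.05), and its reads cannot be told from those of Kcnq1 if the counting ignored strand. The lowest were the host genes of small nucleolar RNAs Snhg12 (-0.55) and Snhg11 (-0.39). Malat1, a nuclear speckle RNA, stood at 31743 and 27188 CPM (log2 0.22, the level of the median gene), and with depth-balanced deciles at log2 -0.06. Splicing and speckle genes had 2 higher and 2 lower of 25, with a median of 0.14, under the median gene by 0.08.

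Stress lists other than heat shock differed from each other in the direction of their counts. Endoplasmic reticulum folding genes had 4 higher and 0 lower of 26 (median 0.24), with Atf6, a sensor of misfolding, at 109 CPM in the top decile and 58.3 CPM in the bottom decile (log2 0.90) and the chaperone Hyou1 at 209 and 124 CPM (0.75). Hspa5, the chaperone BiP, stood at log2 0.24. The integrated stress response had 1 higher and 3 lower of 20 (median -0.19), led downward by Ddit4, an inhibitor of mTORC1, at 28.7 and 109 CPM (log2 -1.93, and -0.31 with depth-balanced deciles). Depth-balanced, 2 of its 20 genes were higher and 1 lower, with a median of -0.04. The highest of this list were Vldlr, a lipoprotein receptor (1.0), and Cebpg (0.56). Ddit3, the stress factor CHOP, stood at 1013 and 1197 CPM (-0.24). Antioxidant genes had 0 higher and 6 lower of 22 (median -0.10). With depth-balanced deciles 0 were higher and 5 lower of 22, with a median of -0.20. Prdx4, a peroxiredoxin of the secretory pathway, stood at 8.69 CPM in the top decile (20 UMIs) and 33.6 CPM in the bottom decile (120 UMIs), at log2 -1.95 (-2.71 to -1.26), and with depth-balanced deciles at -1.90. Txn1, thioredoxin, stood at 67.4 and 153 CPM (log2 -1.18), while its reductase Txnrd1 and sulfiredoxin, Srxn1, stood at 0.29 and 0.58, with Srxn1 at -0.03 in depth-balanced deciles. The p53 and apoptosis list had 0 higher and 1 lower of 10, the lower one being Bbc3, which encodes the death protein PUMA, at 26.1 and 50.7 CPM, and at log2 -0.34 (-0.74 to 0.06) with depth-balanced deciles. Bad, Bcl2l1 and Ccng1 stood at log2 -0.58, 0.42 and 0.55.

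Beta cell identity genes were spread around the median gene. Of 22 members 2 were over 1.5-fold higher and 1 lower, with a median of 0.17, which is -0.05 relative to the median gene. Ffar1, a fatty acid receptor, stood at 130 CPM in the top decile and 77.7 CPM in the bottom decile (log2 0.74), and Nkx2-2, a homeodomain factor of beta cells, at 173 and 111 CPM (0.64). Iapp stood at log2 -0.43, Ucn3 at -0.03, Slc2a2 at 0.28, Pdx1 at 0.06 and Nkx6-1 at 0.12. The lower one was Npy, a peptide, with 22 and 160 UMIs, of which the 5 cells with most gave 100% and 94.4%, so its ratio rests on a few cells. Stmn1, a tubulin-binding protein, had 13 and 159 UMIs, and 5 cells of the bottom decile gave 89.3% of its UMIs there. It belongs to the cell cycle list, which had 0 higher and 2 lower of 6 (median -0.35), with Hmgb2 at log2 -1.03, Tubb5 at -0.24 and the cyclin Ccnd2 at 0.33.

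Secretory granule genes had 1 higher and 3 lower of 25, with a median of 0.19. Syt7, a calcium sensor of exocytosis, stood at 286 CPM in the top decile and 152 CPM in the bottom decile (log2 0.91). Pcsk1, the prohormone convertase that begins proinsulin cleavage, stood at 46.5 and 94.8 CPM (-1.03, and -0.78 with depth-balanced deciles), and Resp18, a granule protein, at 1207 and 2255 CPM (-0.90). Cytosolic ribosomal protein genes had 0 of 24 past 1.5-fold, with a median of 0.15, which is -0.08 relative to the median gene. Their transcripts are short, and against genes of the same length the median was 0.25, with 18 above and 6 below. Glycolysis and hypoxia genes had 2 higher and 1 lower of 18 (median -0.09), with Slc2a1, the transporter GLUT1, at 23.5 and 12.1 CPM (log2 0.96), the phosphofructokinases Pfkp and Pfkm at 0.83 and -0.62, and Tpi1 at -0.37. Lysosome and autophagy genes had 1 and 1 of 21 (median 0.05), from Atp6v1a of the proton pump at log2 0.68 to the protease Ctsl at 126 and 236 CPM (-0.91), with Psap at 0.49 and Map1lc3b at -0.56. Interferon and antigen presentation genes had 1 higher and 2 lower of 11 (median -0.08), with Ifit1 at log2 0.56 (-0.38, -0.64 to -0.12, with depth-balanced deciles), the class I gene H2-D1 at -0.70 and Ifi27 at -0.84.

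Levels differed along the whole range and not at its top alone. In rising order of mitochondrial share, Fos stood at 2264, 1236, 970, 989, 928, 658, 511, 427, 239 and 269 CPM in the 10 deciles. Ubb stood at 7205, 5272, 4565, 4113, 4029, 3807, 3399, 3253, 3110 and 3063 CPM, so the widest step lay between the deciles 1 and 2. Neat1 went the other way, at 296, 410, 440, 458, 502, 565, 576, 620, 645 and 771 CPM. The summed cholesterol and lipid list stood at 1715, 1885, 1988, 2079, 2206, 2169, 2408, 2428, 2498 and 2642 CPM. Set against the middle 2 deciles in place of the lowest, the top decile had 157 genes higher and 98 lower.

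**Figure D4:**
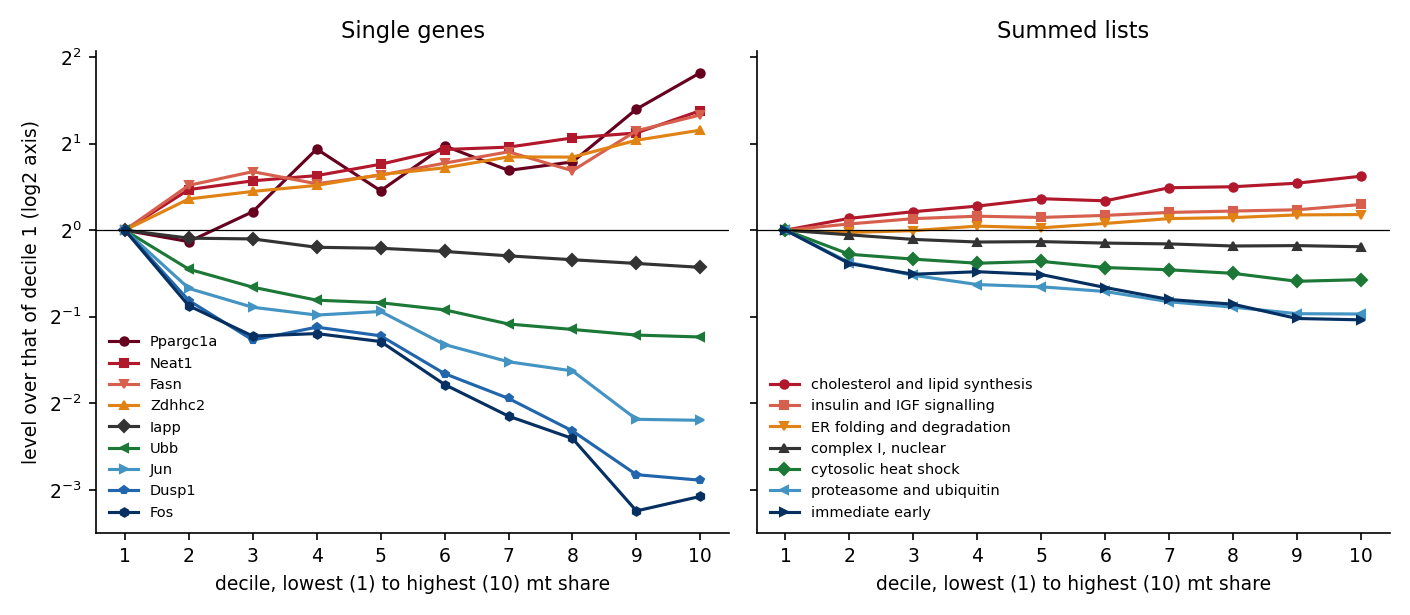
Level in each decile of beta-range cells over that in decile 1 (log2 axis), for 9 genes (left) and 7 summed gene lists (right), with deciles ordered from the lowest to the highest mitochondrial share. Fos stood at 269 CPM in decile 10 and 2264 CPM in decile 1, and Ppargc1a at 64.3 and 18.2 CPM.

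Within the top decile the list medians lay near 0. The 132 cells with the higher mitochondrial share (median 6.69%) were set against the other 131 (5.58%), and the median gene of 6831 stood at log2 0.01. List medians lay at 0.04 for the early genes, -0.04 for the proteasome, 0.05 for heat shock, -0.05 for lipid synthesis and 0.02 for complex I, and over all lists from -0.19 for mitochondrial genome expression to 0.09 for beta cell identity. Fos stood at 299 CPM in the upper and 241 CPM in the lower group of cells, Neat1 at 733 and 807 CPM, and Ppargc1a at 67.4 and 61.4 CPM. Of the 24 genes with the highest and lowest bounds 2 were past 1.5-fold there, Ier2 at 127 and 79.1 CPM (log2 0.68) and Rasd1 at 17.1 and 26.9 CPM (-0.66). Without the 6 cells above 10%, with the deciles drawn anew, 1521 genes were higher and 510 lower, against 1531 and 498 with them.

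The ratio followed transcript length. Of the 6711 genes 6704 had a length in a GENCODE annotation of GRCm38, and in quintiles from the shortest to the longest transcript the median log2 ratio was -0.24, 0.02, 0.28, 0.44 and 0.58. Genes over 1.5-fold higher made up 2.09% of the shortest quintile and 49.0% of the longest, and genes as far lower 19.0% and 1.27%. Depth-balanced medians ran from -0.18 to 0.40. By the genomic span of the gene the medians ran from -0.10 in the shortest to 0.53 in the longest quintile. Relative to the median gene of its length quintile, the early list stood at -1.23, the proteasome list at -0.59, heat shock at -0.90, lipid synthesis at 0.29 and mitochondrial ribosomal proteins at -0.21, Fos at -3.09, Ubb at -1.0, Neat1 at 0.80 and Ppargc1a at 1.24. On that scale 375 genes were higher and 652 lower. The part of length in these values was not tested further.

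**Figure D5:**
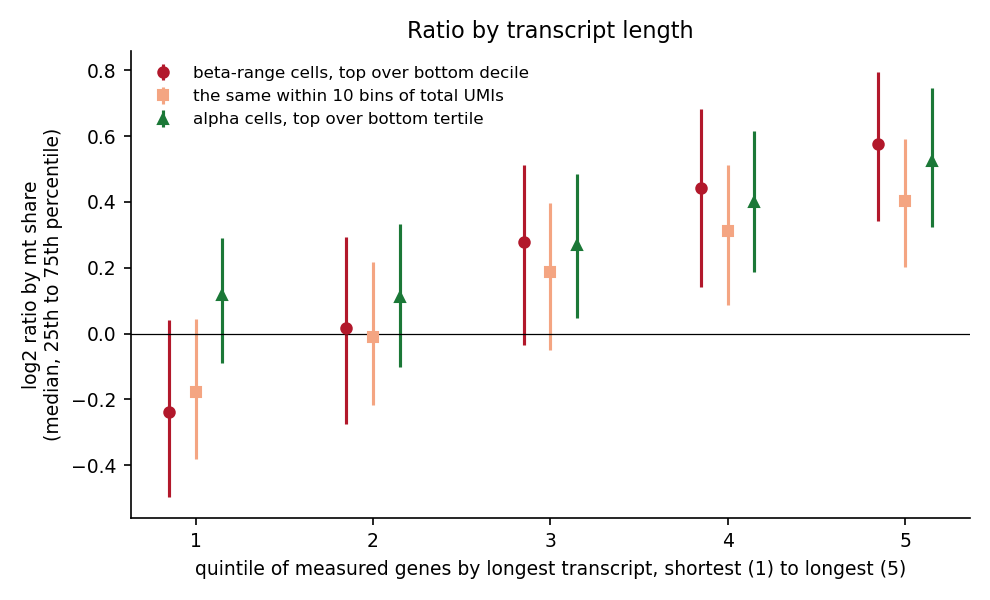
Median log2 ratio by mitochondrial share (points) with the 25th to 75th percentile of genes (bars), in quintiles of measured genes from the shortest to the longest transcript. Shown are beta-range cells, the same with deciles drawn within bins of total UMIs, and alpha cells. The median lay at -0.24 in the shortest and 0.58 in the longest quintile of beta-range cells, and at 0.12 and 0.52 in alpha cells.

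Alpha cells, which the rule did not use, were split in the same way into tertiles of 148 cells by mitochondrial share (medians 2.86% and 1.73%). Their depth was alike, with median UMIs of 15429 in the top tertile and 14917 in the bottom tertile. The denominator of CPM left out insulin but kept the alpha cell's own hormone, so a lower Gcg share raises the CPM of other genes. Gcg stood at 185297 CPM in the top tertile and 269121 CPM in the bottom tertile, Ppy at 13400 and 30936 CPM, and Sst at 3047 and 1384 CPM. The part of this in the alpha cell counts and overlaps was not tested. Of 4886 measured genes 989 (20.2%) were over 1.5-fold higher in the top tertile and 54 (1.11%) lower. The median gene stood at 0.28, and in quintiles of transcript length the medians were 0.12, 0.11, 0.27, 0.40 and 0.52. Relative to the median gene 308 were higher and 276 lower. Of 916 genes higher in the beta cell deciles and measured in both, 449 (49.0%) were also higher in alpha cells and 0 lower, against 19.3% of all 4670 genes measured in both. Of 323 genes lower in the beta cell deciles, 16 (4.95%) were lower in alpha cells and 13 (4.02%) higher, against 1.01% and 19.3% of all. The cells differ but come from 1 library and share its free RNA.

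Marker sums of other cells lay under their level in free RNA in both deciles, except those of duct and lymphocytes. The duct and lymphocyte sums lay above it in the bottom decile. The rule capped Gcg, Ppy and Sst, which made up most of the alpha, pancreatic polypeptide and delta sums. Their low standing was thus largely set by the rule and is given as a description. The 8 alpha cell markers summed to 6189 CPM in the top decile and 7018 CPM in the bottom decile, against 45569 CPM in free RNA, and Gcg alone stood at 3832 and 3798 CPM. Of that group, Ttr and Gc stood at log2 -0.49 and -0.47 and Slc7a2 at 0.58. Delta, pancreatic polypeptide and macrophage markers summed to 637 and 587, to 4896 and 5059 and to 89.1 and 92.0 CPM. Endothelial, acinar and red cell markers summed to 36.9 and 39.0, to 17.4 and 11.8 and to 38.7 and 46.3 CPM. Mesenchymal markers summed to 3.04 and 1.68 CPM and duct markers, which include the keratins Krt8 and Krt18, to 1376 and 1900 CPM, against 1669 CPM in free RNA. Cd3d, Cd3e, Sox9, Ghsr and Ptprz1 gave 0 UMIs in both deciles, which allows 3 counts of 2300886 and of 3566864 nuclear UMIs. The lymphocyte sum, 78.2 and 192 CPM, against 109 CPM in free RNA, came nearly all from Cd79a, at 76.5 and 190 CPM, while Cd79b stood at 1.30 and 1.40 CPM and Ptprc gave 1 and 5 UMIs.

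No doublet caller was run. In the top decile 0 cells lay above 45382 UMIs, 2 times the median of the beta range, against 29 in the bottom decile. With all such cells left out before the deciles were drawn, 1399 genes were higher and 448 lower.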

How the data were processed

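The authors deposited raw UMI counts for each gene in each droplet barcode, unfiltered and unscaled, per the file headers. Of tools, the submitters' processing notes give only FastQC and Trimmomatic, and as genome mm10. What aligned and counted the reads, and on which annotation, is not given in the sources used here. In all, the WT matrix held 118523180 UMIs over 27998 genes and 737280 barcodes, with 104708672 UMIs in 4547 cells.

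The counts of each decile were summed and divided by nuclear non-insulin UMIs, per 1000000 (2300886 and 3566864). Ratios carry exact conditional binomial intervals and levels exact Poisson intervals, and PCR duplicates are removed only as far as UMIs do so. The ratio and its interval were tested on simulated data. Alpha cells held at least 10% Gcg and under 10% insulin. Named genes are the 13 mitochondrial genes, the 12 highest and 12 lowest by interval bound above 50 CPM, the 2 highest and 2 lowest of each list, and a fixed set, of which 1 gene is not reported here. Of 706 genes in 38 lists, 697 were in the gene list. The cells, lists and genes were chosen with earlier results of these data known, and Gm17767 and 8430408G22Rik carry no name beyond their symbols. Python 3.11.15, numpy 2.4.6, scipy 1.17.1, pandas 2.3.3 and matplotlib 3.10.9 were used.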

Additional observations from a re-analysis of the deposited data

How the results depend on the processing

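No paired analysis was possible because each group has 1 library. Counts of genes over 1.5-fold higher and lower, 1531 and 498 as reported, were 739 and 263 with a floor of 50 CPM, 3572 and 1714 with no floor, 2505 and 228 as parts of all UMIs, and 724 and 926 with trimmed-mean (TMM) scaling. They were 779 and 245 within bins of total UMIs, 776 and 266 between quintiles, 157 and 98 over the middle 2 deciles, and 626 and 255 within bins of UMIs crossed with insulin share. They were 658 and 985 relative to the median gene, 375 higher relative to the median gene of the same length, and 298 and 124 where the whole interval lay beyond 1.5-fold. With equal weight per cell, bins of insulin share, the share of non-insulin UMIs, cells low in the early or the heat shock list, and without cells over 2 times the median UMIs or over 10% mitochondrial UMIs, both counts stayed within 1.5 times. In alpha cells, 989 and 54 as reported, they were 293 and 13 with a floor of 50 CPM, 3420 and 1038 with no floor, 310 and 274 by trimmed mean, 308 and 276 relative to the median gene, and 71 and 1 for whole intervals.

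Of 28 list medians 9 kept their sign in 15 settings, among them the early genes (-1.53 to -0.40), the proteasome (-0.95 to -0.20), heat shock (-0.77 to -0.04), lipid synthesis (0.28 to 0.91) and insulin signalling (0.27 to 0.78). The other 19 changed sign, among them complex I (-0.45 to 0.04), complexes II and III (-0.36 to 0.04), complex IV (-0.45 to 0.01), the ATP synthase (-0.48 to 0.03) and beta cell identity (-0.03 to 0.37). Relative to each setting's median gene, those 4 respiratory lists stayed under 0 (-0.49 to -0.08 for complex I). Of 141 named genes 31 changed sign in a setting, 4 of them past 1.5-fold as reported. Irs2 turned to log2 0.13 within bins of UMIs and 0.38 in cells low in early genes, and Clk1 to 0.017 and 0.098. Npy turned to 2.55 and Stmn1 to 0.068 over the middle 2 deciles, and Npy to 0.52 in cells low in heat shock genes. Of the other 27, Ifit1 went down to -0.50 and Srxn1 to -0.24, and Ucn3 up to 0.50, Snhg11 to 0.14 and Tpi1 to 0.10. These counts and ranges, of lists and of genes, leave out the settings relative to the median gene and to length. Further genes turned there. On the length scale Slc2a2 stood at log2 -0.30, Ccnd2 at -0.25 and Hspa5 at -0.04. The cause was not tested. The bins crossed with insulin share, the cells low in early or heat shock genes, the limit of 10%, the settings relative to the median gene and to length, and the whole-interval count were chosen after the data were seen. Depth limits single genes: the median interval spanned 0.36 either side on the log2 scale, and genes under 20 CPM were not read.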
